A study of Mus musculus with 15 samples.

Results

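Junctions of the 5′Sμ bait with chromosome 12 sequence outside the Igh window were taken from the CSR-HTGTS experiment, in which breaks that join to a fixed bait in the Igh switch region are found by linear amplification and sequencing. A junction was counted when its prey, the DNA joined to the bait, lay on chromosome 12 of mm9 outside a window that ends 215 kb centromeric and 35.1 kb telomeric of the bait and holds Sμ, Sγ1, the other switch regions and the first part of the D cluster. This gave 1791 of 42200 junctions in the 10 libraries with mm9 positions, 4.24% of all junctions, of which 208 lay on the centromeric side and 1583 on the telomeric side, where the D and V segments lie. The libraries came from splenic B cells of C57BL/6 mice cultured with LPS, IL-4 and dextran-coupled anti-IgD, a stimulus for AID expression and switching to IgG1. By label, 3 libraries were WT, 2 Shld1-/- (no SHLD1), 3 XLF-/- (no XLF) and 2 Shld1-/-XLF-/- (neither). The labels add a target-locus field that speaks of engineered Igh deletions and an insertion of CTCF-binding elements, which the methods do not describe for these mice. The methods give 3 mice per genotype, but nothing ties a library to an animal, so p-values measure the spread between these libraries. The mice were young littermates matched for age and sex.

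The genotype of 6 of the 10 libraries is in doubt. They appear in the published plots under another genotype than their label. This mapping was read from Sγ1 junction counts and not from the junctions outside the window. Sγ1 junctions were 18439 of the 42200, so their number enters every share of all junctions. The libraries printed as WT are those labelled WT 1, Shld1-/- 2 and XLF-/- 3, and those printed as Shld1-/- are labelled WT 2, Shld1-/- 3 and Shld1-/-XLF-/- 1. The libraries printed as XLF-/- are labelled WT 3 and XLF-/- 1, and those printed as Shld1-/-XLF-/- are labelled XLF-/- 2 and Shld1-/-XLF-/- 3. Both sources give 1 genotype for WT 1, Shld1-/- 3, XLF-/- 1 and Shld1-/-XLF-/- 3. Tests below were run by label, and the same test by printed genotype stands beside it. Which of the groupings is right was not tested. In Sγ1, among joins without inserted bases, those with no bases shared by bait and prey were 30.3% to 31.0% in printed WT. In labelled WT they were 16.6% to 30.3%. For Shld1-/- the ranges were 12.7% to 16.6% as printed and 16.2% to 30.8% as labelled. They were 13.0% to 18.2% and 5.50% to 31.0% for XLF-/-, and 5.50% to 5.73% and 5.73% to 12.7% for Shld1-/-XLF-/-. The libraries held 1590 to 8531 junctions, and 31 to 421 of them were on chromosome 12 outside the window. No chromosome 12 junction outside the window carried the pipeline's flag for mapping quality or for duplicates, and no read name occurred in more than 1 library. Of all junctions of a library, 11.5% to 39.1% carried the flag for mapping quality and 1.95% to 8.01% that for duplicates. Shares of all junctions therefore hold flagged junctions in the denominator only.

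In class switch recombination AID makes breaks in Sμ and in a downstream switch region, and joining them deletes the DNA in between. 53BP1 and its effector shieldin, of which SHLD1 is a subunit, hold back the trimming of broken ends, and XLF is a factor of the classical end-joining pathway. The DNA on the telomeric side of Sμ holds the J, D and V segments that V(D)J recombination has already joined in a B cell, so that the distance along the reference genome is not the distance on a rearranged allele. A bait end joined to a prey on the same strand gives a deletion when the prey is centromeric and an excised circle when it is telomeric, and a prey on the opposite strand gives an inversion, as long as both ends are on 1 chromosome. Microhomology (MH) is the number of bases at the junction that match both bait and prey, a direct join has none, and an insertion has bases that match neither.

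Reads across a few junctions show what was counted. Each line runs 5′ to 3′ from the bait into the prey, with 30 bases of each, and capitals mark the MH. The first pair, on the telomeric side, holds the longest MH of 15 bp, at position 114728854 (mm9, + strand, 63.9 kb from the bait, library XLF-/- 2), and the direct join at 114700113 (+ strand, library WT 2), which is also the junction nearest to the bait, at 35.2 kb.

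Telomeric, longest MH: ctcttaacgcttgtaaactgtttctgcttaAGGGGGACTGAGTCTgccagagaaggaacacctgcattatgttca
Telomeric, direct join: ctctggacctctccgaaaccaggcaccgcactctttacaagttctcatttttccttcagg

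On the centromeric side the longest MH was also 15 bp, at 89277636 (− strand, 25387 kb from the bait, library WT 3), and the farthest junction lay at 3222613 (− strand, 111442 kb away, library XLF-/- 3) with an MH of 2 bp. The first direct join by position, at 16630458 (− strand, library Shld1-/-XLF-/- 1), has a prey whose best match in GRCm38 was on chromosome 2 with a mapping quality of 0, so its place is uncertain.

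Centromeric, longest MH: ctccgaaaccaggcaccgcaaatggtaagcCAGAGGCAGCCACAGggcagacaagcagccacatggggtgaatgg
Centromeric, farthest: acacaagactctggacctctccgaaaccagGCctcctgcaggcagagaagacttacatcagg
Centromeric, direct join: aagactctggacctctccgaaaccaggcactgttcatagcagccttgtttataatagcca

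Telomeric-side junctions made up either about 1 in 10 junctions of a library or close to none. In the libraries printed as Shld1-/-, 9.70% (95% Wilson interval 8.66 to 10.8), 10.7% (9.74 to 11.7) and 9.82% (8.84 to 10.9) of all junctions lay there, and in those printed as Shld1-/-XLF-/- 9.53% (8.55 to 10.6) and 9.25% (7.92 to 10.8). The libraries printed as WT held 0.405% (0.257 to 0.640), 0.270% (0.180 to 0.404) and 0.329% (0.225 to 0.482), and those printed as XLF-/- 1.15% (0.810 to 1.63) and 1.34% (1.03 to 1.73). The 5 libraries printed without SHLD1 thus lay above the other 5 with no overlap, and both printed XLF-/- libraries lay above all 3 printed WT libraries. Most junctions of every library lay in the Igh window, so their number enters these shares. Of the junctions outside that window, 5.42% to 7.08% were telomeric in printed WT, 5.97% and 11.2% in printed XLF-/-, 39.3% to 49.2% in printed Shld1-/- and 34.1% and 42.5% in printed Shld1-/-XLF-/-. On that scale printed WT and XLF-/- overlapped, and the libraries printed without SHLD1 still lay above the rest. Intervals cover counting error only, since reads carry no molecular identifiers.

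**Figure D1:**
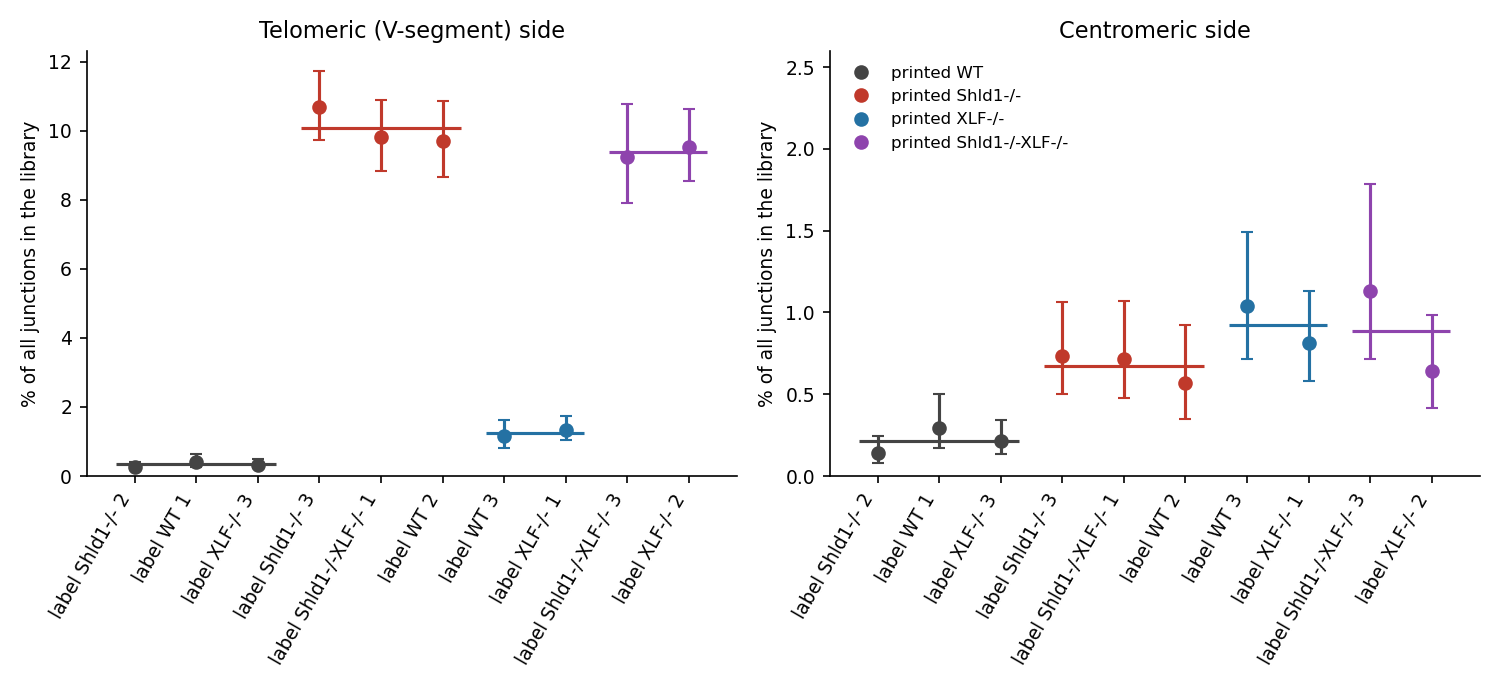
Share of all junctions of each library on the telomeric side and on the centromeric side (1 panel each, y axis in %) of chromosome 12 outside the Igh window. Points are libraries named by label and coloured by printed genotype, bars are 95% Wilson intervals and lines are means of a printed genotype; the 5 libraries printed without SHLD1 sit between 9.25% and 10.7% on the telomeric side, and the other 5 between 0.270% and 1.34%.

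By label, loss of SHLD1 changed the telomeric share by 3.77 percentage points (exact stratified permutation test, two-sided, p = 0.33, adjusted p = 0.88 over 12 comparisons), a difference within the spread of libraries of 1 label. By printed genotype the difference was 8.94 percentage points (exact p = 0.0167, the smallest this design allows, adjusted p = 0.0667), and it stayed between 8.79 and 9.04 with each library left out in turn. In the 4 libraries with 1 genotype in both sources, the difference was 9.10 percentage points (exact permutation p = 0.5, the smallest that 4 libraries allow). Mean shares by printed genotype were 0.335% ± 0.0680 (SD, n = 3) for WT, 10.1% ± 0.543 (n = 3) for Shld1-/-, 1.24% ± 0.134 (n = 2) for XLF-/- and 9.39% ± 0.203 (n = 2) for Shld1-/-XLF-/-. Against printed WT these are 30.1-fold, 3.71-fold and 28.1-fold, and 7.46-fold, 1.43-fold and 6.39-fold as shares of junctions outside the Igh window. For XLF loss the difference was 2.02 percentage points by label (exact permutation p = 0.717) and 0.113 by printed genotype (exact permutation p = 0.74), and −1.92 by printed genotype among junctions outside the Igh window (exact permutation p = 0.56).

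On a log scale of distance, telomeric junctions fell into 2 clusters. There were 443 junctions under 100 kb from the bait, 446 between 100 kb and 1 Mb, 677 between 1 and 3 Mb, and 17 beyond 3 Mb. The first cluster spans the D segments and the second the V segments. In libraries printed without SHLD1 the nearest class held 2.58% to 2.91% of all junctions, against 0.0759% to 0.667% in the others, and the 1 to 3 Mb class held 3.84% to 4.67% against 0.129% to 0.502%. Beyond 3 Mb, past the last V segment, each library had 0 to 4 junctions, and the libraries printed with and without SHLD1 overlapped.

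**Figure D2:**
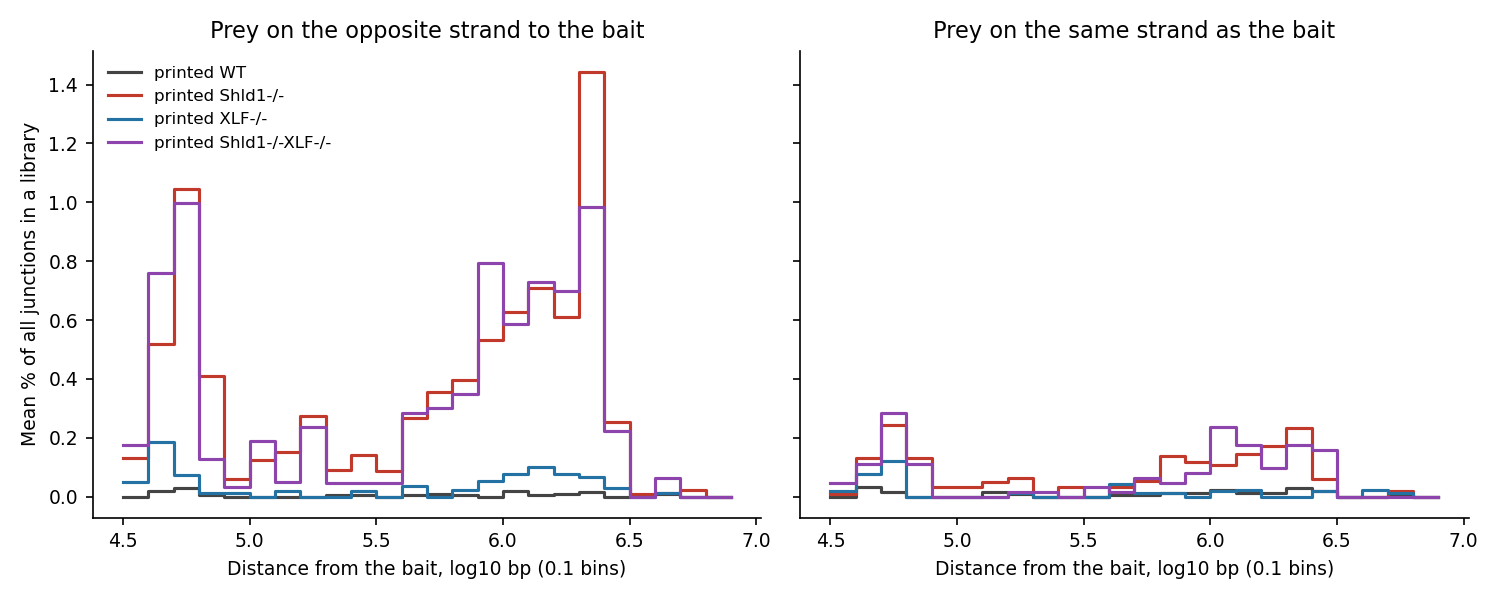
Telomeric junctions by distance from the bait (log10 bp, bins of 0.1) as the mean percentage of all junctions in a library, for prey on the opposite strand (left) and the same strand (right), with 1 line per printed genotype. Lines for printed Shld1-/- and Shld1-/-XLF-/- show a peak below 100 kb and a broad rise up to 3 Mb, mostly on the opposite strand.

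To name what lies at the telomeric junctions, the prey part of each read was matched to GRCm38, and 1558 of 1583 telomeric preys matched chromosome 12. Of the telomeric matches 1424 had a mapping quality of at least 20. In GENCODE M21 the V cluster spans chromosome 12 from 113572927 to 116010093, with 113 functional V segments and 81 V pseudogenes, all on the minus strand. The V cluster held 1078 junctions (4.42 per 10 kb), and the 66.3 kb from the window edge to the end of the D cluster 438 (66.1 per 10 kb). The 44.9 kb between both clusters held 23 (5.13 per 10 kb). Averaged per base, then, the D cluster was hit more often than the V cluster, and the stretch between them about as often as the V cluster.

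The V cluster held 6.16% to 7.87% of all junctions in the libraries printed without SHLD1 and 0.188% to 0.788% in the others. For that D stretch the ranges were 2.50% to 2.91% and 0.0759% to 0.667%. Both parts therefore separated the printed groups, by 34.1-fold and 27.2-fold between the means of printed Shld1-/- and WT. These folds are over all junctions, a scale on which the whole telomeric side differed 30.1-fold, against 7.46-fold over junctions outside the Igh window. Between the clusters, libraries printed without SHLD1 had 3 to 6 junctions each and the others 0, a count that allows up to 3 in each. At the window's edge, the 10 kb inside it held 56 junctions of all libraries, the 10 kb outside it 78, and the next 142. The 10-kb bins after these held 168, 29, 17 and 7, so most junctions of the D stretch lay near the window.

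Junctions in the V cluster were spread over its whole length. In 5 stretches of equal length, counted from the D side, there were 225, 256, 198, 157 and 242 junctions. Within that spread they gathered at functional V segments: 784 of 883 opposite-strand junctions had a functional V segment as the nearest one below them, 88.8%, although 62.7% of the bases of the cluster do. Per 10 kb, 5.13 opposite-strand junctions lay above functional segments and 1.09 above pseudogenes. The share was above that of bases in 10 of 10 libraries (mean 90.4% ± 6.26, SD; exact two-sided sign-flip permutation test over libraries, p = 0.00195, the smallest 10 libraries allow, adjusted p = 0.00195 over 5 such comparisons). With each library left out, the mean stayed between 89.3% and 91.5%. Single libraries held 2 to 253 opposite-strand junctions in the V cluster. These comparisons with bases count repeats and other hard-to-map bases, and were chosen after the values were seen.

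Pooled over libraries, opposite-strand junctions lay mainly upstream of the V segment, 2 to 10 kb from its 3′ end. The median distance from that end was 3.78 kb (quartiles 2.18 and 5.87 kb), whereas the bases of the cluster have a median of 7.03 kb. Of these junctions 42.8% lay at 2 to 5 kb, where 21.6% of bases lie, and 3.85% beyond 10 kb, where 34.8% of bases lie. In 10 of 10 libraries more of them lay under 5 kb than the 37.3% of bases (mean 72.2% ± 11.8, SD, exact sign-flip permutation p = 0.00195). Of all opposite-strand V-cluster junctions 830 came from libraries printed without SHLD1, and the fewest in a library were 2. Those inside a V segment also count as under 5 kb. They were 8 of 16 in printed WT, where the median was 0.68 kb. With matches of mapping quality 20 or more, the median was 3.75 kb and the functional share 88.2%. Of same-strand junctions 84.6% were nearest a functional V segment. Their median was 3.89 kb, but it pools unlike libraries: 0.21 kb in printed WT and 4.64 kb where SHLD1 is printed as lost. At 2 to 5 kb lay 25.1% of them, and under 0.5 kb 16.4%, where 3.98% of bases lie. The functional share (mean 83.0% ± 13.0, SD) and the share under 5 kb (65.7% ± 20.2) were above those of bases in 10 of 10 libraries (exact sign-flip permutation p = 0.00195 each). Each library held 3 to 40 same-strand junctions in the V cluster, and those inside a V segment count as under 5 kb.

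Of the 113 functional segments 100 had at least 1 opposite-strand junction above them, and of 81 pseudogenes 41. Ighv3-6 (GRCm38 114288152 to 114288582) had the most, 45, with junctions in 5 libraries. Next came Ighv1-82 with 26, Ighv9-3 with 26 and Ighv1-26 with 25, and the median functional segment had 4. V segments form families of near-identical copies, so the assignment of single junctions to 1 of them is uncertain, and these segments are named for their counts. Reads at both ends of the stretch above Ighv3-6 are shown, the lowest at 115526368 (+ strand, library Shld1-/-XLF-/- 1, direct) and the highest at 115535649 (+ strand, library Shld1-/-XLF-/- 3, MH of 4 bp), both in mm9.

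Ighv3-6, lowest: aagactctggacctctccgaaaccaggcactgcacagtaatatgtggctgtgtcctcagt
Ighv3-6, highest: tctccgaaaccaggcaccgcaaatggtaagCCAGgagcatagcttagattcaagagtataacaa

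**Figure D3:**
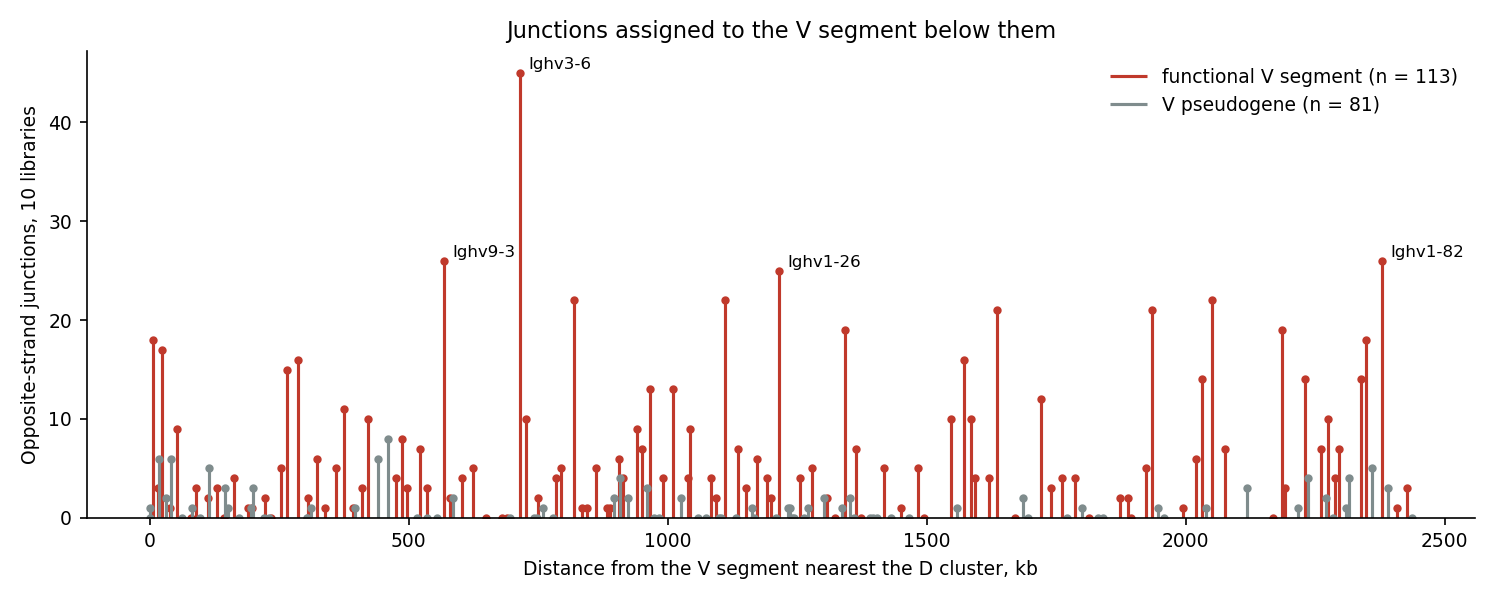
Opposite-strand junctions of the 10 libraries assigned to the V segment below them (y axis, count), against the distance of that segment from the V segment nearest the D cluster (x axis, kb). Functional segments (red, n = 113) reach 45 at Ighv3-6, and pseudogenes (grey, n = 81) stay at 8 or fewer.

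Junctions in the V cluster of the libraries printed as WT lay mostly inside V segments, above all those on the same strand. Of their same-strand junctions 23 of 26 lay inside an annotated V segment, with a median of 0.213 kb from its 3′ end: 6 of 8, 8 of 9 and 9 of 9 in the libraries labelled WT 1, Shld1-/- 2 and XLF-/- 3. In the 5 libraries printed without SHLD1, 7 of 160 did, between 0% and 8.11% in each, and the median distance was 4.64 kb. Printed XLF-/- libraries had 1 of 9, with 1 of 3 in WT 3 and 0 of 6 in XLF-/- 1. V segments take up 3.43% of the bases of the cluster. Opposite-strand junctions inside a V segment numbered 8 of 16 in printed WT, 6 of 37 in printed XLF-/- and 34 of 830 in libraries printed without SHLD1.

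By printed genotype, the share of same-strand V junctions inside a segment changed by −48.8 percentage points without SHLD1 (exact stratified permutation p = 0.05, adjusted p = 0.05 over 4 comparisons) and by −37.5 without XLF (exact permutation p = 0.02, adjusted p = 0.04). For opposite-strand junctions the changes were −33.1 (exact permutation p = 0.05, adjusted p = 0.05) and −27.0 (exact permutation p = 0.01, adjusted p = 0.04), in the same direction. By label the same-strand differences were −10.2 (exact permutation p = 0.75) and −24.3 (exact permutation p = 0.383). The opposite-strand ones were −15.5 (exact permutation p = 0.59) and −17.4 (exact permutation p = 0.40). The comparison was made after the values were seen. In the libraries printed with SHLD1 it rests on 3 to 9 same-strand and 2 to 27 opposite-strand junctions per library, with the fewest, 2, in WT 1. As counts, same-strand junctions inside a V segment numbered 0 to 3 per library where SHLD1 is printed as lost, 6 to 9 in printed WT and 0 to 1 in printed XLF-/-. These counts are not on 1 scale. The printed WT libraries held 4441, 8531 and 7900 junctions in all, and those printed without SHLD1 1590 to 3684. Examples from printed WT are a direct join inside Ighv5-2 (mm9 114816930, − strand, library WT 1) and one inside Ighv1-82 (mm9 117190916, − strand, library Shld1-/- 2).

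Inside Ighv5-2: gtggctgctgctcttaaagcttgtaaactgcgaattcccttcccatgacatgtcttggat
Inside Ighv1-82: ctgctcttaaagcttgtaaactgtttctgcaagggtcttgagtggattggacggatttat

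**Figure D4:**
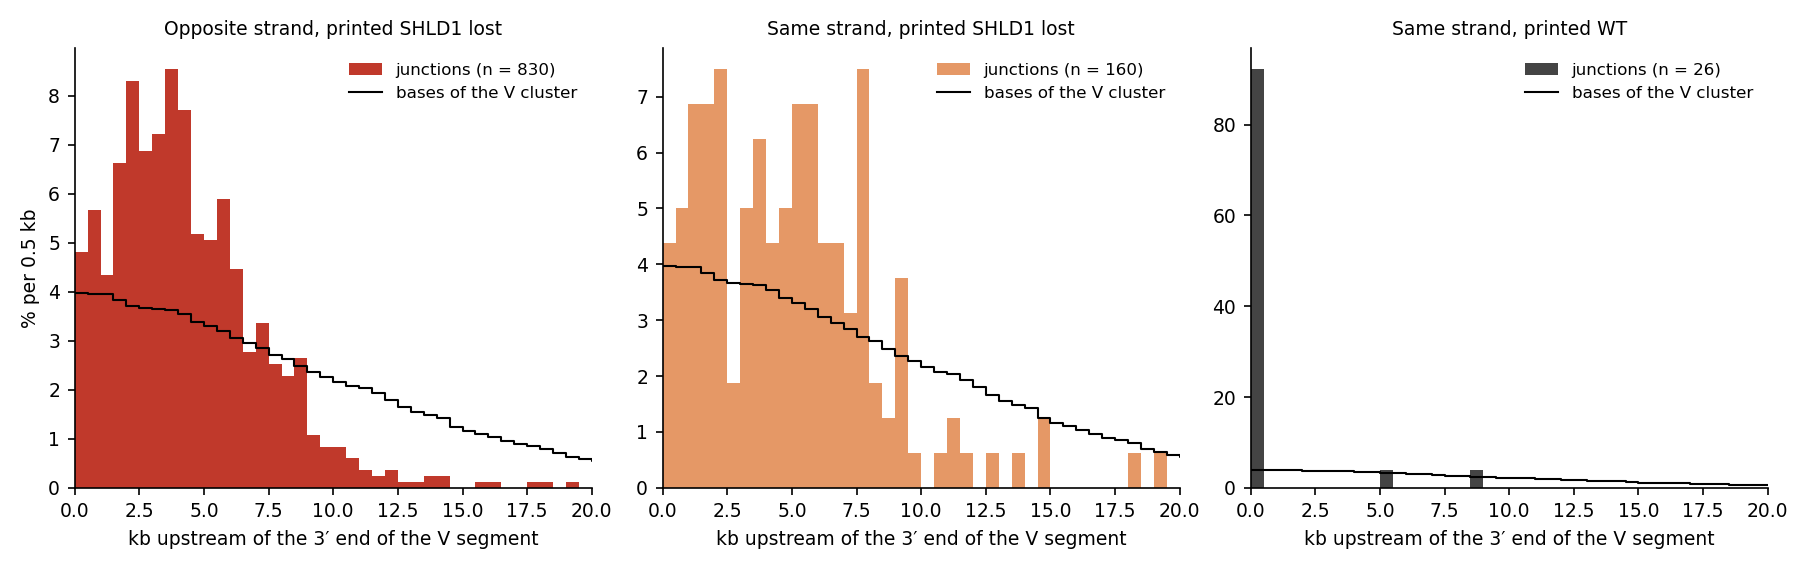
Distance of V-cluster junctions from the 3′ end of the V segment below them (x axis, kb) as a percentage per 0.5 kb (y axis, its own scale in each panel), with the bases of the cluster as a black line. Opposite-strand (n = 830) and same-strand (n = 160) junctions of libraries printed without SHLD1 lie mostly under 10 kb (799 and 150) and reach 19.2 and 19.1 kb, and 24 of the 26 same-strand junctions of printed WT lie under 0.5 kb.

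Orientation separated the printed groups too, but by a narrow margin. On the telomeric side, prey on the same strand as the bait made up 66.7%, 52.2% and 57.7% of junctions in the libraries printed as WT (12 of 18, 12 of 23 and 15 of 26). Printed XLF-/- libraries had 22.6% and 39.3%, those printed as Shld1-/- 18.7%, 14.5% and 20.8%, and those printed as Shld1-/-XLF-/- 18.5% and 17.0%. No library printed without SHLD1 reached the lowest of the others. That lowest value, 22.6% in WT 3, was 7 of 31 junctions (Wilson interval 11.4% to 39.8%). The interval holds the values of all 5 libraries printed without SHLD1. Counting junctions of both sides, loss of SHLD1 changed the same-strand share by −30.6 percentage points by printed genotype (exact stratified permutation p = 0.0167, adjusted p = 0.0667) and by −8.21 by label (exact permutation p = 0.46), where the sign turns to 3.89 without Shld1-/- replicate 3.

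Both orientations were more frequent in the libraries printed without SHLD1, the opposite strand by more. Opposite-strand telomeric junctions were 7.67% to 9.15% of all junctions there and 0.129% to 0.889% elsewhere, and same-strand junctions 1.55% to 2.05% against 0.141% to 0.526%. Means of printed Shld1-/- were 61.5-fold and 9.0-fold those of printed WT, whose 3 libraries held 28 and 39 such junctions. These folds are over all junctions. For both strands together the fold was 30.1 on that scale and 7.46 over junctions outside the Igh window, where the strands were not taken apart. Each difference had an exact permutation p of 0.0167 by printed genotype (adjusted p = 0.0417 over 10 comparisons chosen after the values were seen), and 0.34 and 0.44 by label. By distance, the printed genotypes ran in different directions. Same-strand junctions under 100 kb, from 100 kb to 1 Mb and from 1 to 3 Mb were 9 of 19, 10 of 16 and 19 of 29 in printed WT, and 16 of 36, 6 of 17 and 4 of 30 in printed XLF-/-. In printed Shld1-/- they were 20.2%, 17.6% and 16.0%, and in Shld1-/-XLF-/- 23.0%, 10.6% and 18.8%. These differences between distance classes were not tested.

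At the junction itself, telomeric joins used 2 bp of MH most often in each printed genotype. Among junctions without insertion, direct joins were 11 of 55 in printed WT (Wilson interval 11.6% to 32.4%), 60 of 852 in Shld1-/- (7.04%, 5.51 to 8.96), 5 of 59 in XLF-/- (8.47%, 3.67 to 18.4) and 16 of 385 in Shld1-/-XLF-/- (4.16%, 2.57 to 6.64). An MH over 3 bp was seen in 9.09% (3.95 to 19.6), 29.6% (26.6 to 32.7), 15.3% (8.24 to 26.5) and 29.1% (24.8 to 33.8), in the same order. Both shares pool the libraries of a printed genotype, so their intervals leave out the spread between libraries. In single printed WT libraries, telomeric direct joins ranged from 4.76% to 33.3%. Within the libraries, the long-MH share was 26.6% to 32.5% where SHLD1 is printed as lost and lower in each of the others, from 4.76% in XLF-/- 3 to 18.2% in WT 3 and, at the top, 3 of 15 junctions in WT 1. This telomeric difference was 16.8 percentage points by printed genotype (exact permutation p = 0.0167, adjusted p = 0.0417 over the same 10 comparisons) and 6.43 by label (exact permutation p = 0.39). The telomeric direct-join share changed by −9.24 by printed genotype (exact permutation p = 0.0667, adjusted p = 0.111) and by 0.673 by label (exact permutation p = 0.88).

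For both sides together, loss of SHLD1 changed the direct-join share by −7.43 percentage points by printed genotype (exact stratified permutation p = 0.0333, adjusted p = 0.08), with p up to 0.133 when a library is left out, and by 3.27 by label (exact permutation p = 0.54). The share with an MH over 3 bp changed by 9.96 (exact permutation p = 0.0667) and 0.840 (exact permutation p = 0.94). For loss of XLF the direct-join share changed by −7.86 by printed genotype (exact permutation p = 0.11) and −8.49 by label (exact permutation p = 0.30). None of these 4 values for direct joins and none for long MH passed the threshold after adjustment. The libraries printed as WT themselves spread widely, with direct joins in 6 of 26, 9 of 29 and 3 of 35 junctions without insertion.

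Against junctions in Sγ1 of the same library, chromosome 12 junctions outside the Igh window had fewer direct joins. The difference averaged −6.88 percentage points ± 6.91 (SD, n = 10 libraries), was negative in 8 of 10, and had an exact sign-flip permutation p of 0.0117 (adjusted p = 0.0352 over 6 comparisons). It ranged from −22.4 in XLF-/- 3 to 0.276 in Shld1-/- 2, and the libraries printed as Shld1-/-XLF-/- lay at −0.0894 and 0.0719. The share with an MH over 3 bp differed by −0.310 ± 8.17 (exact permutation p = 0.91), and the insertion share by 3.29 ± 6.76 (exact permutation p = 0.201). Insertions were most frequent in the libraries printed as XLF-/-, 25.4% and 26.7% of chromosome 12 junctions outside the window against 9.56% and 11.2% in Sγ1. The other 8 libraries held 12.9% to 18.6% outside the window on chromosome 12.

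**Figure D5:**
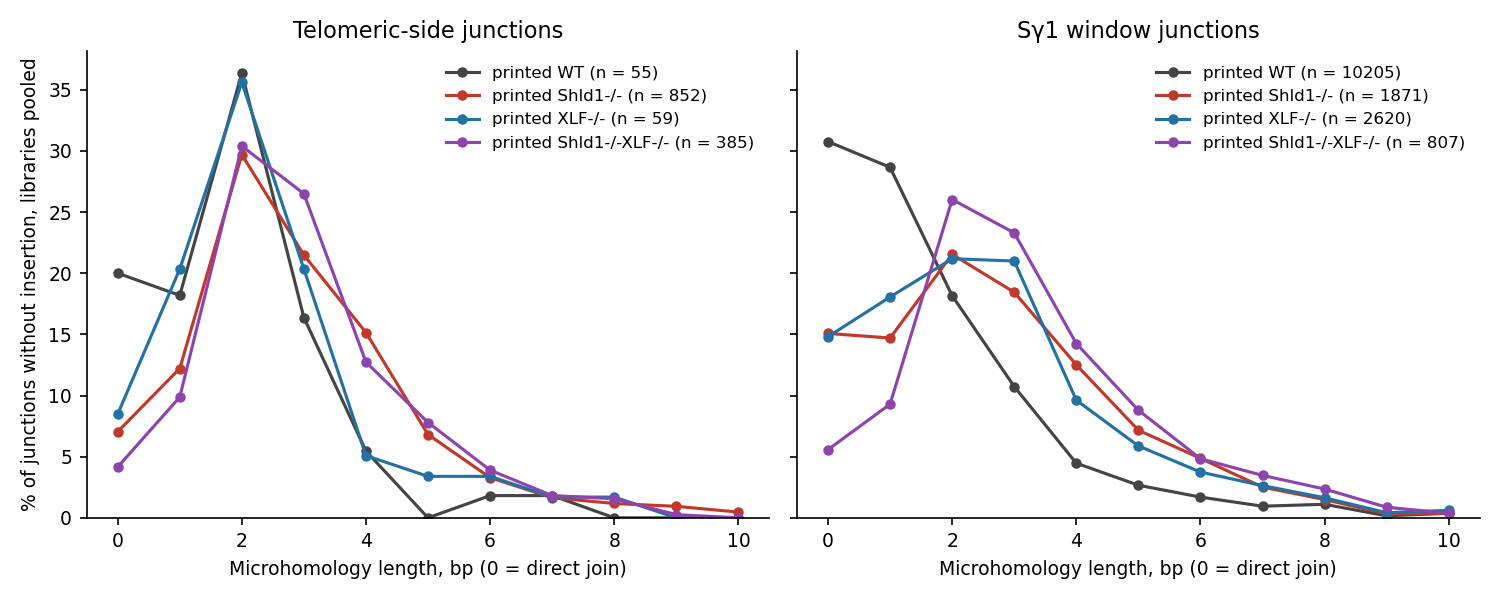
Percentage of junctions without insertion (y axis, libraries of a printed genotype pooled) by MH length in bp (x axis), for telomeric-side junctions (left) and Sγ1-window junctions (right). In printed WT, direct joins are 11 of 55 on the telomeric side and 30.8% in Sγ1, and 2 bp is the most frequent length on the telomeric side in all 4 printed genotypes.

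The centromeric side held few junctions, 12 to 34 per library. The libraries printed as WT had 0.293%, 0.141% and 0.215% of all junctions there, those printed as Shld1-/- 0.568%, 0.733% and 0.713%, those printed as XLF-/- 1.04% and 0.812%, and those printed as Shld1-/-XLF-/- 0.640% and 1.13%. All 7 libraries printed as mutant lay above the 3 printed as WT, with the printed Shld1-/- libraries below the printed XLF-/- ones and Shld1-/-XLF-/- spanning both. By printed genotype, loss of XLF changed the share by 0.462 percentage points (exact stratified permutation p = 0.03, adjusted p = 0.08) and loss of SHLD1 by 0.208 (exact permutation p = 0.217). By label the changes were 0.204 (exact permutation p = 0.467) and 0.0854 (exact permutation p = 0.70). Divided by the junctions outside the Igh window in place of all junctions, the SHLD1 value turned to −0.884 by label (exact permutation p = 0.37) and −1.69 by printed genotype (exact permutation p = 0.05). On that scale printed WT held 2.85% to 4.63%, printed Shld1-/- 2.30% to 3.37%, Shld1-/-XLF-/- 2.85% and 4.18%, and XLF-/- 5.39% and 6.77%, so that of the mutants the printed XLF-/- libraries alone lay above all of WT.

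Most centromeric junctions were far away: 15 lay under 1 Mb from the bait, 24 between 1 and 10 Mb and 169 beyond 10 Mb. Same-strand prey made up 111 of 208, with 22.2% to 91.7% in single libraries. The telomeric same-strand share was lower than the centromeric one in 8 of 10 libraries, by 20.3 percentage points on average (difference −20.3 ± 28.3, SD, exact sign-flip permutation p = 0.0547). The 2 exceptions, WT 1 and XLF-/- 3, are both printed as WT. With each library left out in turn p lay between 0.0117 and 0.105, below the threshold without either exception and above it without any other library.

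Beyond 10 Mb, centromeric junctions were about as dense as on other chromosomes. Per Mb of chromosome there were 0.105 to 0.239 of them, and a median of 0.112 to 0.176 over the other autosomes. The log2 ratio averaged 0.06 ± 0.38 (SD, n = 10; −0.56 to 0.51; exact sign-flip permutation p = 0.633). Chromosome 12 outside the window as a whole, telomeric side included, stood above the other autosomes in 10 of 10 libraries, with a mean log2 ratio of 2.72 ± 1.44 (exact sign-flip permutation p = 0.00195, adjusted p = 0.0117), from 0.90 in the library labelled Shld1-/- 2 to 4.43 in Shld1-/- 3. Leaving out preys that were at least 80% G, of which 24 lay on the centromeric side and 1 on the telomeric side, raised the far-centromeric log2 ratio to 0.33 (exact permutation p = 0.0371).

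Of the 208 centromeric preys 169 matched chromosome 12 of GRCm38. In these, 71 lay in introns of protein-coding genes, 11 in exons and 87 between genes. Within 10 kb of the start of a protein-coding gene lay 36.1% of them, where 9.61% of bases lie, and the share was above that of bases in 10 of 10 libraries (mean 35.9% ± 11.2, SD; exact sign-flip permutation p = 0.00195). Without the gene hit most often it was 32.1%, 51 of 159. That gene was Zfp36l1, which encodes an RNA-binding protein that promotes decay of AU-rich mRNAs. It held 10 junctions from 5 libraries (GRCm38 80109458 to 80112778), 3 of them from libraries printed without SHLD1, all within 235 to 3555 bp of its start, 7 in the intron and 3 in exons. Gphn, which encodes gephyrin, followed with 4, and each other gene had 3 or fewer.

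Reads at the lowest and highest Zfp36l1 position (mm9 81210445, library XLF-/- 1, and 81213765, library WT 3, both − strand) are given for their place near the gene start.

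Zfp36l1, lowest: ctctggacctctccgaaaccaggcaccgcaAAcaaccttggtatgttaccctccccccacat
Zfp36l1, highest: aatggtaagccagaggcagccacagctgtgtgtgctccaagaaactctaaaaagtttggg

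By 1-Mb bins of mm9, 30 bins held junctions from at least 3 libraries. The 4 with most junctions are those of the D and V clusters, starting at 114000001, 115000001, 116000001 and 117000001, with 573, 483, 342 and 170. The bin at 81000001, which holds Zfp36l1, followed with 20 from 7 libraries, and that at 63000001 had 11 from 7 libraries. Of those 11, 4 matched GRCm38 inside the Igh locus (113424818 to 113424908) with a mapping quality of 0 to 6, 1 matched the V cluster and 2 matched nowhere, so the place of this bin's junctions is uncertain. The bins at 113000001, 119000001, 70000001 and 79000001 held 8, 8, 7 and 7. Of the 110 bins from 3 to 113 Mb 67 had a junction, and the median bin had 1.

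Only 2 prey positions recurred between libraries with the same base and strand. One, at 81654468 (− strand), had 4 junctions from WT 2, Shld1-/- 3 and XLF-/- 1, all with insertions, and its preys of 35 to 39 bases were 94.3% to 97.4% G and matched GRCm38 nowhere. The other, at 114716188 (+ strand), had 1 junction each in WT 2 and Shld1-/- 3, with MHs of 3 and 8 bp. Within libraries, 64 positions held more than 1 junction, up to 3, so that 1725 of the 1791 junctions were distinct.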

How the data were processed

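The authors made CSR-HTGTS libraries from genomic DNA, ran their published HTGTS pipeline (Bowtie2 and mm9, per the submitters' processing notes) and deposited 1 row per junction, with positions, strands, read coordinates and flags and no normalization. Of 15 libraries, 2 with MH lengths only and 3 of the 129s strain were not used here. Rows were counted as deposited. MH is the bait's last minus the prey's first aligned read base, plus 1; negative values are insertions, left out of MH shares. Distance is from the most frequent bait end. Sγ1 is a 20-kb window of mm9. Library values were compared by exact permutation tests within strata of the other gene, or by sign flips over libraries, with Benjamini-Hochberg adjustment. The region, the lists and the tests were chosen with earlier results of these data known. Bins and positions were named by summed rows, at most 10 each, from at least 3 and 2 libraries; sequences by longest MH, first direct join, and distance. V segments, genes, read examples beyond these and the G filter were chosen after the values were seen. Preys were matched to the GRCm38 main chromosomes with minimap2 2.31; no coordinates were converted. No mm9 annotation was used. Python 3.11.15 with numpy 2.4.6, pandas 2.3.3 and statsmodels was used, and the tests were checked on simulated junctions.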

Additional observations from a re-analysis of the deposited data

How the results depend on the processing

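By label, no genotype comparison passed the threshold, and leaving out each library in turn gave ranges of 1.10 to 6.61 percentage points for SHLD1 loss and the share outside the window, 1.16 to 6.37 (telomeric), −0.0627 to 0.233 (centromeric), −20.3 to 3.89 (same strand), −2.77 to 9.31 (direct joins) and −6.20 to 7.88 (MH over 3 bp). For XLF loss they were −0.533 to 4.98, −0.589 to 4.62, 0.0563 to 0.352, −22.4 to 1.78, −14.5 to −2.45 and −3.48 to 10.6, in the same order. Signs turned without Shld1-/- 2, Shld1-/- 3, XLF-/- 3 or Shld1-/-XLF-/- 3. With printed genotypes, SHLD1 loss changed the 3 shares outside the window, telomeric and same-strand to 9.15, 8.94 and −30.6, direct joins to −7.43, and XLF loss the centromeric share to 0.462; in the 4 libraries with 1 genotype in both sources, SHLD1 values were 9.48, 9.10, −31.7 and −8.99 (outside, telomeric, same strand, direct) and XLF values −0.259 (telomeric) and −3.11 (MH over 3 bp). With the denominator outside the Igh window the centromeric SHLD1 value was −0.884 by label and −1.69 by printed genotype. Restricted to rows at least 1 Mb from the bait, MH over 3 bp changed to −1.61 for SHLD1 loss and to 3.17 against Sγ1 (1.21 against all Igh junctions), insertions to 4.80 and the orientation difference to −21.3. Not divided by length, the far-centromeric log2 ratio was −0.27, and 0.33 without G-rich preys. Over libraries left out, the within-library values ranged from −26.5 to −16.9 (orientation), −2.11 to 0.645 (MH over 3 bp against Sγ1), 1.90 to 4.0 (insertions), −7.67 to −5.15 (direct joins), 0.01 to 0.13 (far-centromeric) and 2.52 to 2.92 (all of chromosome 12). By printed genotype, the SHLD1 telomeric difference lay between 6.63 and 34.2 over 7 alternatives, each with exact permutation p = 0.0167. The cause of these changes was not tested. By label no pairing exists, since numbers follow accession order. The plots number repeats, and with the printed repeat as a replicate block (4 pairs per gene, smallest exact permutation p 0.125, chosen after the values were seen) SHLD1 loss gave 9.65, 9.35, 0.298, −33.4, −10.5 and 12.9 (outside, telomeric, centromeric, same strand, direct, MH over 3 bp) and XLF loss 0.453, 0.0177, 0.436, −7.49, −11.0 and 3.81. Deviations of same-repeat libraries over the other autosomes correlated at −0.341 to 0.556, above 0.1 in 5 of 12 pairs. These values cannot tell whether same-repeat libraries share more than a number, since pairs of different repeats were not set beside them. With few junctions, single shares in the printed WT libraries have wide intervals.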
